A study of Mus musculus with 6 samples.

Results

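Astrocytes are the star-shaped glia that take up glutamate and potassium, supply neurons with metabolites and line blood vessels, and they grow alongside neurons in many primary brain cultures. Genes for these tasks are usually called homeostatic. After injury or inflammation astrocytes become reactive: filament genes such as Gfap and Vim rise, and cytokine signals acting through receptors such as the oncostatin M receptor and the transcription factor STAT3 turn on secreted proteins and surface receptors. The 39 genes described here were taken by symbol from a list of astrocyte genes, and all 39 were found among the 37411 gene rows of the count table. The list and its groups were chosen with earlier results of these data known, so they are not independent of the values below. For the comparison of homeostatic with reactive genes, 25 were placed in a homeostatic group and 10 in a reactive group (Gfap, Vim, Nes, Lcn2, Serpina3n, Steap4, Cd44, Osmr, Timp1 and Tnc). The 3 metallothioneins and the progenitor gene Fabp7 were kept apart.

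The cultures were hippocampal neurons of newborn CD-1 IGS mouse pups (P0), grown for 16 days in vitro. Libraries 1, 2 and 3 came from cultures given the solvent DMSO, and libraries 4, 5 and 6 from cultures given 50 µM forskolin, a plant compound that activates adenylyl cyclase and raises cyclic AMP, each for 30 min. No genetic change is given for any culture, and the labels name no pooling, sex or batch. Nothing in the labels says that the libraries of a group came from separate animals, so that p-values measure only the spread between these libraries.

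Total counts ranged from 28342764 to 47548379 per library, and all 39 genes passed the filter on low counts. Values are CPM, the count of a gene scaled to the size of its library, with TMM factors. The 14 neuron markers had counts in all 6 libraries and summed to 4919 to 6210 CPM with DMSO; with forskolin the sums were 3620 (library 4), 3866 (library 5) and 5946 CPM (library 6). The 39 astrocyte genes summed to 22676, 21251 and 19821 CPM with DMSO, so that the cultures labelled as neurons also held astrocyte transcripts. Libraries 4 and 5 stood apart from library 6 in microglia and oligodendrocyte markers as well. The 12 microglia markers summed to 22.98 to 35.3 CPM with DMSO and to 227, 376 and 25.1 CPM in libraries 4, 5 and 6. The 12 markers of the oligodendrocyte lineage summed to 835 to 936 CPM with DMSO and to 1138, 1623 and 652 CPM in libraries 4, 5 and 6, although 5 of the 12 were below the DMSO range in library 4 and 4 in library 5. The 12 vascular and meningeal markers summed to 156 to 388 CPM with DMSO and to 462, 188 and 137 CPM in libraries 4, 5 and 6. For these markers library 4 alone was above the DMSO range, and library 5 was inside it. No microglia or oligodendrocyte marker was at 0 counts in any library, whereas the endothelial marker Cldn5 was at 0 in every library but library 4. The part of these cells in the values below was not tested, and in bulk RNA fewer cells of a type cannot be told apart from less RNA per cell.

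With all 6 libraries, none of the 39 astrocyte genes was called by edgeR's quasi-likelihood test at a Benjamini-Hochberg adjusted p-value under 0.05. The background was 1.51% of 16233 tested genes, 0.172% higher and 1.34% lower. Before adjustment, 10 of the 39 had a p-value under 0.05 (25.6%, against 22.3% of all genes tested). DESeq2 called 5 (12.8%, against 10.9%), with Lcn2, Steap4 and Fabp7 higher, where 4.89% of all genes were, and Cst3 and Fgfr3 lower, where 5.98% were. The groups did not overlap for 9 of the 39 genes (23.1%), where 26.5% of all tested genes had groups that did not overlap, 10.2% higher and 16.2% lower. Slc1a3 and Fabp7 lay higher in every forskolin library, and Aldoc, Fgfr3, Ndrg2, Acsbg1, Apoe, Cst3 and Ttyh1 lay lower. Scaled by library size alone, Slc1a3 left this set and Glul and Atp1b2 joined the lower genes.

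The forskolin libraries differed among themselves. Relative to the range of the DMSO libraries, 19 of the 39 genes were above it in both library 4 and library 5 (48.7%, against 30.2% of all tested genes), and 10 were below it in both (25.6%, against 32.5%). Of the 19, library 6 was above the DMSO range for Slc1a3 and Fabp7, below it for 11 genes and within it for 6. Without library 6, edgeR called 20 of the 39 genes, 12 higher and 8 lower. That is 30.8% higher, against 16.5% of 16941 tested genes, and 20.5% lower, against 17.1%. Of the 39, 0 were also called on 6 libraries by limma-voom (1.34% of all genes tested), and by edgeR with RLE factors (0.844%), with library size alone (2.01%), with no filter (0.795%) and with a filter at a mean CPM of 1 (1.69%). Leaving out any other single library left 0 of the 39 called, but also 0% of all genes tested in each of those 5 fits. With the GC trend removed and library 6 left out, edgeR called 16 of the 39 higher and 7 lower, against 16% and 16.1% of all genes tested (32.1% in either direction). Gfap, Mlc1, Sox9, Mt2 and Mt3 (higher) and Slc1a2 (lower) were called in that fit and not without the GC correction, and Fabp7, Fgfr3 and Acsbg1 were no longer called. With all libraries kept and weighted by their quality in limma-voom, 13 of the 39 were called higher, against 21% of all genes tested, and 9 lower, against 20.9% (41.9% in either direction).

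**Figure D1:**
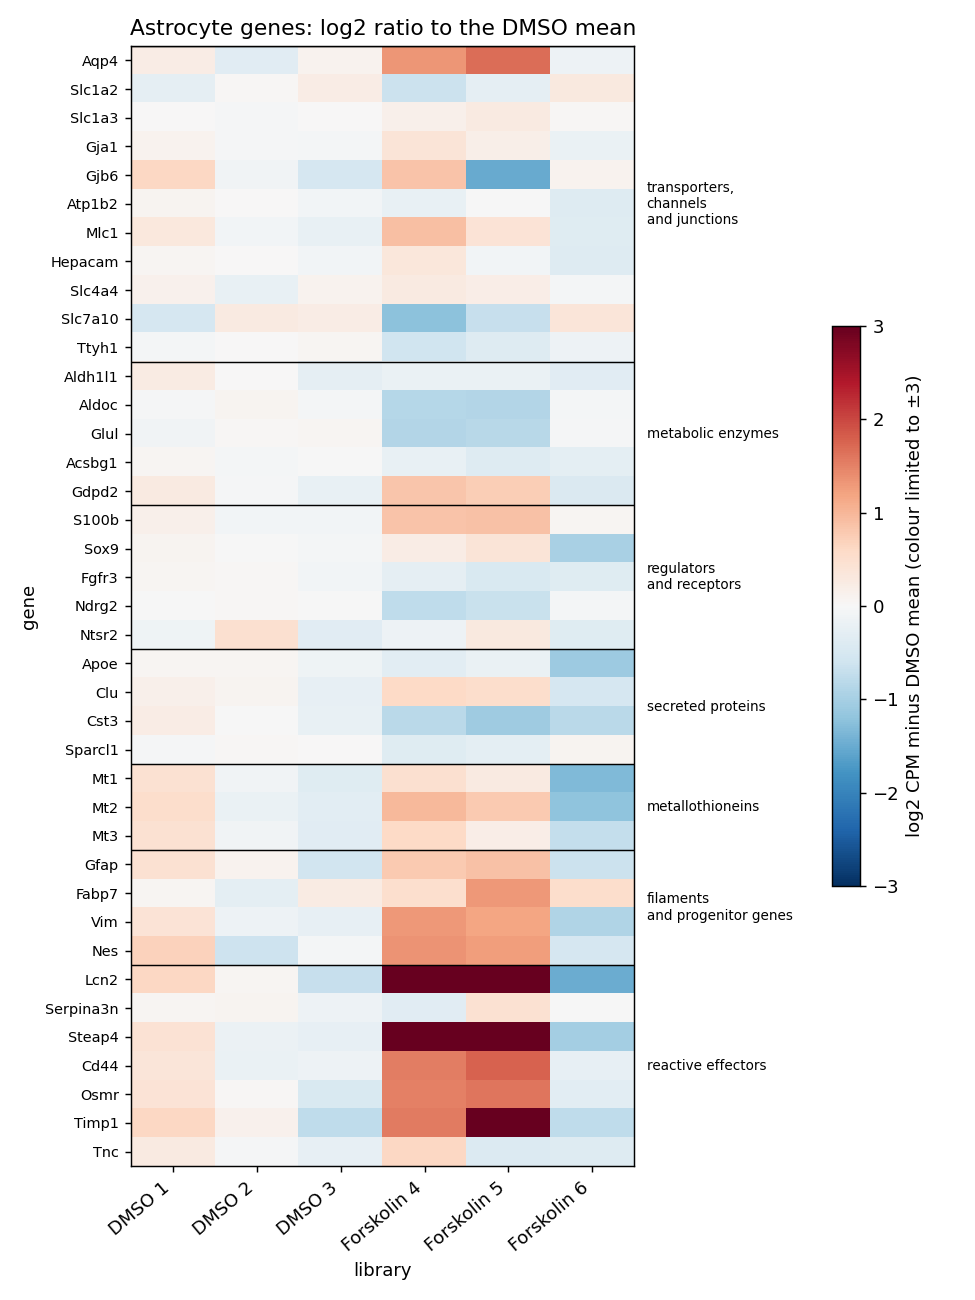
Log2 CPM of each of the 39 astrocyte genes (rows, grouped by role) in each library (columns), minus the mean of the 3 DMSO libraries. Red is above and blue below that mean, with colour limited to ±3; the reactive effectors and filament genes are mostly red in libraries 4 and 5 and mostly pale or blue in library 6.

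The homeostatic and reactive groups differed in libraries 4 and 5. As a log2 ratio to the DMSO mean, the median of the 10 reactive genes was 0.42, 0.0010 and -0.26 with DMSO, and 1.43, 1.42 and -0.58 in libraries 4, 5 and 6. Libraries 4 and 5 were thus well above the DMSO libraries, and library 6 was below all of them. The median of the 25 homeostatic genes was 0.067, 0.0089 and -0.068 with DMSO, and -0.21, -0.19 and -0.19 with forskolin. These medians near 0 cover genes that went both ways. Library 4 had 11 homeostatic genes above and 12 below the DMSO range, library 5 had 9 above and 12 below, and library 6 had 4 above and 16 below. As shares these are 44% and 48%, 36% and 48%, and 16% and 64%, where 37.5% and 38.1%, 37.1% and 39.3%, and 29.5% and 35.3% of all tested genes lay above and below, so that libraries 4 and 5 were not far from the background. The difference of the medians, reactive minus homeostatic, was 0.35, -0.0079 and -0.19 with DMSO, and 1.64, 1.61 and -0.38 in libraries 4, 5 and 6.

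In the fit to all 6 libraries the median log2 fold change was 0.96 for the reactive genes, -0.17 for the homeostatic genes and 0.021 for all genes tested. All 10 reactive genes and 9 of the 25 homeostatic genes had a fitted fold change above 0. Without library 6 the medians were 1.35, -0.13 and -0.0095. In that fit 7 of the 10 reactive genes were called higher and 0 lower, whereas 4 of the 25 homeostatic genes were called higher and 8 lower, where 16.5% of all tested genes were higher and 17.1% lower. The 4 higher homeostatic genes are thus near the share over all genes. Without libraries 4 and 5 together, which leaves library 6 as the lone treated library and assumes that it varies like the DMSO libraries, the reactive median was -0.62 and the homeostatic median -0.16. None of the 39 was called by edgeR there, against 0.555% of all genes tested in that fit (0.0354% higher and 0.519% lower).

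**Figure D2:**
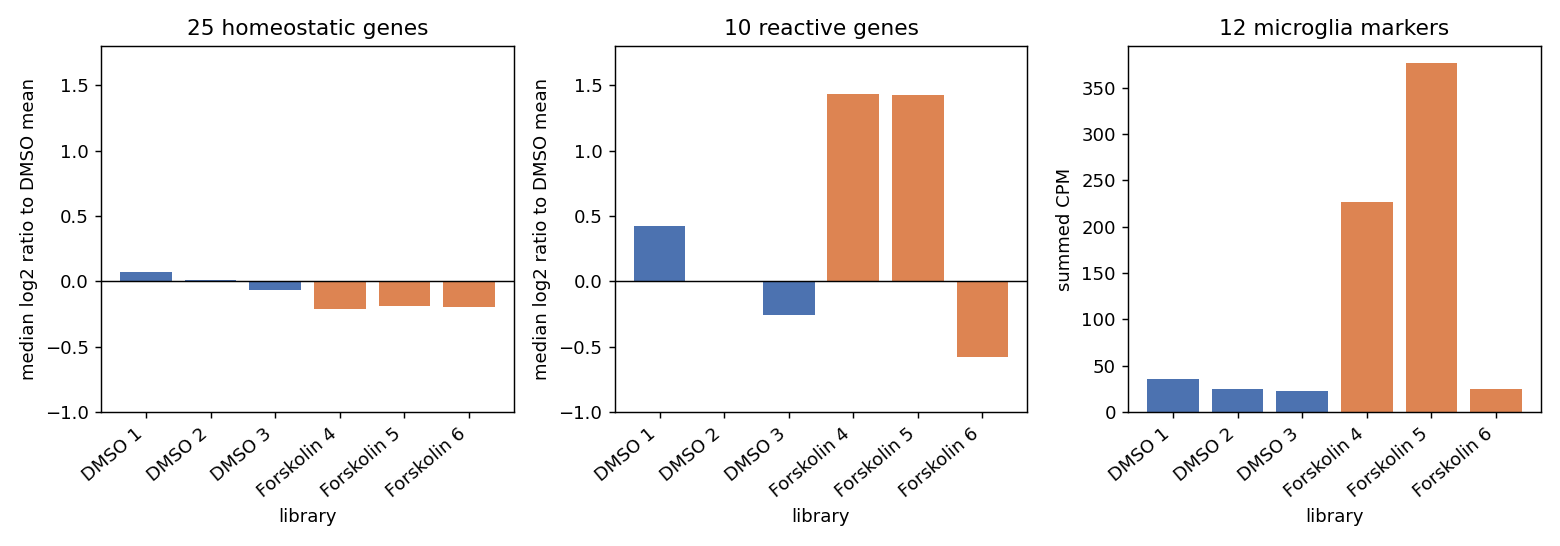
Median log2 ratio to the DMSO mean of the 25 homeostatic genes (left) and the 10 reactive genes (middle), and summed CPM of 12 microglia markers (right), by library. The reactive median reaches 1.43 and 1.42 in libraries 4 and 5 and -0.58 in library 6, and the microglia sum is high in the same pair of libraries; the homeostatic median stays between -0.21 and 0.067.

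Levels of different genes were compared as CPM per kb of the longest annotated transcript. With DMSO the highest was Cst3, a secreted inhibitor of cysteine proteases, at 2471 ± 374 CPM per kb (SD, n = 3), followed by the lipid carrier gene Apoe at 2024 ± 143 CPM per kb. Gfap, Aldoc and Glul came next, at 645 ± 221, 625 ± 35.4 and 576 ± 35.5 CPM per kb, and their ranges overlapped. The lowest were Timp1 (1.09 ± 0.510), Slc7a10 (0.988 ± 0.275) and Steap4 (0.840 ± 0.233 CPM per kb). Of 38 pairs of neighbours in this order, 28 overlapped over the DMSO libraries, so that many neighbours could not be ranked. Reactive genes other than Gfap and Vim lay in the lower part of the order, from Serpina3n at 49.1 ± 4.50 CPM per kb downwards.

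The 2 glutamate uptake genes ranked 12 (Slc1a3) and 16 (Slc1a2) of 39 in level per kb with DMSO, and neither was called with or without library 6. Slc1a3, which encodes the glutamate transporter GLAST, had 1533, 1477 and 1518 CPM with DMSO and 1664, 1827 and 1537 CPM with forskolin. Library 6 exceeded the highest DMSO library by very little (log2 fold change 0.15 ± 0.15 (SE), edgeR adjusted p = 0.571). Slc1a2, which encodes the main forebrain glutamate transporter GLT-1, had 1465, 1805 and 2056 CPM with DMSO and 1127, 1465 and 2140 CPM in libraries 4, 5 and 6. Its groups overlapped, with libraries 4 and 5 at the low end and library 6 the highest of all (log2 fold change -0.17 ± 0.27 (SE), edgeR adjusted p = 0.733). Slc1a2 was called lower with the GC trend removed and library 6 left out (log2 fold change -0.60, edgeR adjusted p = 0.0353).

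Aqp4, the water channel gene, was 1 of 9 homeostatic genes above the DMSO range in both libraries 4 and 5. It had 312, 212 and 289 CPM with DMSO and 674, 861 and 242 CPM in libraries 4, 5 and 6. Libraries 4 and 5 were thus at 2.49 and 3.18 times the DMSO mean, while library 6 lay inside the DMSO range. The log2 fold change was 1.13 ± 0.44 (SE) with an edgeR adjusted p of 0.201 on 6 libraries, and 1.48 with an adjusted p of 0.00428 without library 6. Gja1, which encodes the gap junction protein connexin 43, had 240, 215 and 212 CPM with DMSO and 289, 251 and 194 CPM with forskolin, with libraries 4 and 5 highest and library 6 lowest. The other junction gene, Gjb6 (connexin 30), was low, from 1.94 CPM in library 5 to 10.1 CPM in library 4. Mlc1 and Hepacam, whose proteins form a complex at astrocyte end feet, had overlapping groups, at 434 to 1037 CPM for Mlc1 and 101 to 167 CPM for Hepacam over the 6 libraries. So did the sodium bicarbonate cotransporter gene Slc4a4 (250.5 to 355 CPM), the sodium pump subunit gene Atp1b2 (39.1 to 54.4 CPM) and the amino acid transporter gene Slc7a10 (0.764 to 2.45 CPM). Ttyh1, which encodes a membrane protein of the tweety family, lay lower in every forskolin library, at 425, 449 and 459 CPM with DMSO and 296, 340 and 397 CPM with forskolin (log2 fold change -0.37 ± 0.15 (SE), edgeR adjusted p = 0.209, and 0.0146 without library 6).

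Among metabolic enzymes, Glul and Aldoc followed the same course. Glul encodes glutamine synthetase, which turns the glutamate that astrocytes take up into glutamine. Its level was 1495, 1646 and 1681 CPM with DMSO and 866, 903 and 1575 CPM in libraries 4, 5 and 6, so that libraries 4 and 5 were at 0.539 and 0.562 times the DMSO mean and library 6 was within the DMSO range. Aldoc, the brain form of the glycolytic enzyme aldolase, had 1692, 1854 and 1676 CPM with DMSO and 956, 943 and 1658 CPM with forskolin. Library 6 lay just under the lowest DMSO library. On 6 libraries the log2 fold changes were -0.53 ± 0.26 (SE) for Glul and -0.55 ± 0.25 (SE) for Aldoc, with edgeR adjusted p-values of 0.279 and 0.254, and without library 6 they were -0.88 and -0.89, with adjusted p-values of 0.00395 and 0.00373.

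Aldh1l1, a folate enzyme used as a general astrocyte marker, had 138, 117 and 96.0 CPM with DMSO and 100.1, 102 and 90.8 CPM with forskolin. Libraries 4 and 5 lay inside the DMSO range and library 6 just under it (log2 fold change -0.26 ± 0.15 (SE), edgeR adjusted p = 0.341). The acyl-CoA synthetase gene Acsbg1 had 231, 214 and 221 CPM with DMSO and 190, 170 and 180 CPM with forskolin, a small shift without overlap (log2 fold change -0.30 ± 0.11 (SE), edgeR adjusted p = 0.180, and 0.0411 without library 6). Gdpd2, which encodes a glycerophosphodiester phosphodiesterase, overlapped between the groups, at 10.8 to 25.9 CPM, with libraries 4 and 5 at 1.75 and 1.66 times the DMSO mean. Its log2 fold change was 0.47 on 6 libraries (edgeR adjusted p = 0.433), and 0.76 with an adjusted p of 0.0163, called higher, when library 6 was left out.

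Regulators and receptors showed no common direction. Ndrg2, a gene of the N-myc downstream-regulated family, had 1061, 1107 and 1068 CPM with DMSO and 638, 678 and 1037 CPM in libraries 4, 5 and 6, the course described for Glul and Aldoc. Its log2 fold change was -0.46 ± 0.21 (SE) with an edgeR adjusted p of 0.259, and -0.73 with an adjusted p of 0.00448 without library 6. The fibroblast growth factor receptor gene Fgfr3 had 131, 128 and 118 CPM with DMSO and 104, 92.0 and 97.8 CPM with forskolin. Here library 6 lay between the other treated libraries (log2 fold change -0.36 ± 0.11 (SE), edgeR adjusted p = 0.140, and 0.0310 without library 6). S100b, which encodes a calcium-binding protein, had 37.5, 31.7 and 31.8 CPM with DMSO and 60.6, 61.5 and 35.1 CPM with forskolin, so that libraries 4 and 5 were at 1.8 and 1.83 times the DMSO mean. It was called higher without library 6 (0.84 on the log2 scale, with an edgeR adjusted p of 0.00420) and not with it (0.64 ± 0.22 (SE), adjusted p = 0.176). Sox9, a transcription factor gene needed for astrocyte formation, had 52.0, 48.3 and 46.9 CPM with DMSO and 57.3, 63.9 and 24.97 CPM in libraries 4, 5 and 6. Library 6 was at 0.509 times the DMSO mean, far below the other 5 libraries. The neurotensin receptor gene Ntsr2 overlapped between the groups, at 22.7 to 40.6 CPM.

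Of the 4 genes for secreted proteins, Cst3 and Apoe lay lower in every forskolin library. Cst3 had 2460, 2096 and 1819 CPM with DMSO and 1203, 1007 and 1198 CPM with forskolin. All 3 forskolin libraries were close together and well under the lowest DMSO library. It had the most negative fold change and the smallest adjusted p-value of the 39 genes (log2 fold change -0.90 ± 0.18 (SE), edgeR adjusted p = 0.0711), with adjusted p-values of 3.27e-05 under DESeq2 and 0.00887 under edgeR without library 6. Apoe had 2961, 2971 and 2618 CPM with DMSO and 2281, 2461 and 1336 CPM with forskolin, with library 6 the lowest (log2 fold change -0.49 ± 0.26 (SE), edgeR adjusted p = 0.302, and -0.28 with an adjusted p of 0.109 without library 6). Cst3 and Apoe are also made by microglia, whose summed markers were high in libraries 4 and 5 and within the DMSO range in library 6. Both genes were below the DMSO range in all 3 forskolin libraries. The part of microglia in these values was not tested. The chaperone gene Clu had 920, 874 and 693 CPM with DMSO and 1236, 1188 and 582 CPM with forskolin, and so was highest in libraries 4 and 5 and lowest in library 6. Sparcl1, a gene for a matricellular protein that promotes synapse formation, overlapped between the groups, at 1091 to 1497 CPM. On 6 libraries the log2 fold changes were 0.27 for Clu and -0.18 for Sparcl1 (edgeR adjusted p = 0.612 and 0.553); when library 6 was left out Clu was called higher (0.53, adjusted p = 0.0309) and Sparcl1 lower (-0.35, adjusted p = 0.0332).

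The 7 genes that lay lower in every forskolin library were all homeostatic. They make up 28.0% of the homeostatic genes, against 16.2% of all tested genes. Their longest transcripts had a GC content of 50.8% to 59.5%, with a median of 55.4%, against 49.5% over 15769 tested genes with a value and 51.9% over the 25 homeostatic genes. When the trend of each library on GC content was removed, their median log2 fold change went from -0.46 to -0.31. That of Apoe went to -0.050, of Acsbg1 to -0.085 and of Fgfr3 to -0.089, whereas Cst3 was at -0.58 and Aldoc at -0.46. With this correction edgeR on 6 libraries called 0 of the 39 genes and 0% of the 16233 tested. Before adjustment, 12% of all tested genes had a p-value under 0.05, and among the 39 these were S100b, Cst3, Mt3, Fabp7, Lcn2 and Steap4.

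**Figure D3:**
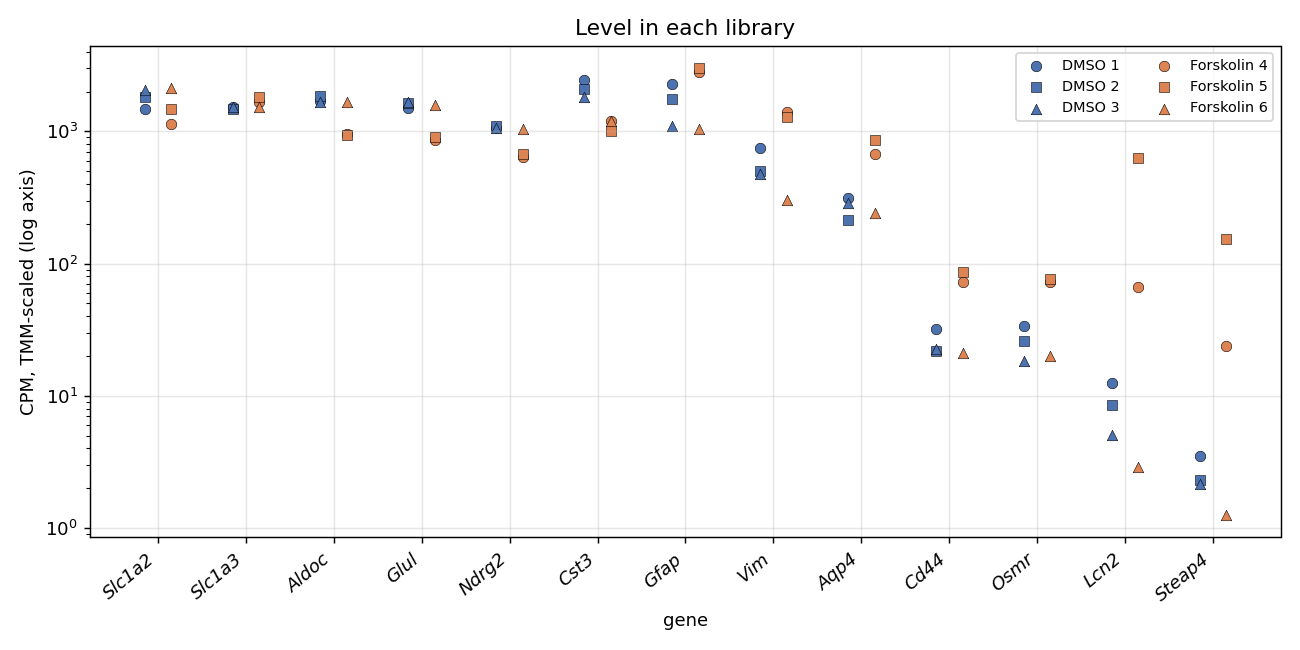
CPM on a log axis for 13 of the 39 genes, with the DMSO libraries in blue and the forskolin libraries in orange and one symbol per library. For Glul, Aldoc and Ndrg2 the symbols of libraries 4 and 5 lie below the other 4; for Vim, Aqp4, Cd44, Osmr, Lcn2 and Steap4 they lie above them.

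Metallothioneins are small cysteine-rich proteins that bind zinc and copper; Mt1 and Mt2 are induced by metals and stress, and Mt3 is the brain form. The genes lie side by side on mouse chromosome 8 (GRCm38), and counts of such similar transcripts can be split between copies, so their single values are uncertain. Mt1 had 589, 401 and 335 CPM with DMSO and 597, 516 and 171 CPM with forskolin. Mt2 had 253, 152 and 141 CPM with DMSO and 344, 300.4 and 76.4 CPM with forskolin, and Mt3 had 405, 272 and 231 CPM and 443, 338 and 180 CPM. In all 3 genes library 1 was the highest DMSO library and library 6 the lowest of all 6 libraries, at 0.387, 0.421 and 0.595 times the DMSO mean. Over the 39 genes library 1 was the highest DMSO library for 28, and library 6 the lowest of all for 18. The log2 fold changes of Mt1, Mt2 and Mt3 were -0.047, 0.40 and 0.082 on 6 libraries and 0.32, 0.81 and 0.35 without library 6, and edgeR called none of the 3 in either fit. With the GC trend removed and library 6 left out, Mt2 and Mt3 were called higher (1.01 and 0.89, edgeR adjusted p = 0.0199 for both).

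The 250 bases before the RefSeq starts of the 3 metallothionein genes are shown because all were highest in library 4 and lowest in library 6. Mt1 is chr8:94178839-94179088, Mt2 is chr8:94172368-94172617 and Mt3 is chr8:94152357-94152606, all GRCm38 and plus strand. Capitals mark matches on either strand to the core of the metal response element (TGCGCNC or TGCACNC) and, in Mt1 alone, to the short form of the cAMP response element (TGACG, here read from the other strand).
Mt1: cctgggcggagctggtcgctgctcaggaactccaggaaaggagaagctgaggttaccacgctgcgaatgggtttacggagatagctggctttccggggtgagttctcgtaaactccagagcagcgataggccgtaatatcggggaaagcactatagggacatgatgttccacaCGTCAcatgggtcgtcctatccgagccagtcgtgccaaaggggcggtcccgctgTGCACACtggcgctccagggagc
Mt2: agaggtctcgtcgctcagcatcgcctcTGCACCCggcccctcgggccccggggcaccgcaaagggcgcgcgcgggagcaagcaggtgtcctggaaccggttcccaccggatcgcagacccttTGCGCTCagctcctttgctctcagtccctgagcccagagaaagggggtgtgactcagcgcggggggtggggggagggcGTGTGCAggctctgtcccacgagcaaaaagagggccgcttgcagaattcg
Mt3: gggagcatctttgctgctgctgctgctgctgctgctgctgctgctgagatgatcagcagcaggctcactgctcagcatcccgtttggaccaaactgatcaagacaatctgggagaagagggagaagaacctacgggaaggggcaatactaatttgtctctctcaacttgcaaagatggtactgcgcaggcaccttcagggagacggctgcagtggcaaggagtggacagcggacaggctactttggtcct
The metal core was found once in the Mt1 window, 3 times in that of Mt2 and 0 times in that of Mt3. Bases outside these windows were not searched, so these are not counts for whole promoters. It occurs in 7 of the 43 windows found for 34 of the 39 genes (16.3%) and in 21.4% of all 32851 windows of the same length.

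The filament genes Gfap, Vim and Nes were highest in libraries 4 and 5. Gfap, which encodes the main intermediate filament of astrocytes, had 2262, 1766 and 1097 CPM with DMSO and 2799, 3000.5 and 1043 CPM with forskolin. The DMSO libraries themselves spread widely, and library 6 lay just below library 3, the lowest of them (log2 fold change 0.42 ± 0.44 (SE), edgeR adjusted p = 0.598). Gfap had a log2 fold change of 0.75 and an edgeR adjusted p of 0.0834 when library 6 was left out, and 0.95 with an adjusted p of 0.0319 when the GC trend was removed as well. Vim, the gene of the filament protein vimentin, had 754.5, 505 and 474 CPM with DMSO and 1394, 1282 and 302 CPM with forskolin. Library 6 was the lowest of all, and libraries 4 and 5 were at 2.41 and 2.22 times the DMSO mean. Nes, the gene of the progenitor filament nestin, gave 153, 61.5 and 91.1 CPM with DMSO and 243, 225 and 67.1 CPM with forskolin. Both Vim and Nes were called higher without library 6 (log2 fold changes 1.20 and 1.18, edgeR adjusted p = 0.00908 and 0.0400) and not with it (0.78 and 0.81, adjusted p = 0.411 and 0.389). Fabp7, a fatty acid binding protein gene of radial glia and young astrocytes, had 228, 181 and 260 CPM with DMSO and 311, 546 and 317 CPM with forskolin. It was the only gene of the 39 that lay higher in all 3 forskolin libraries under both scalings (log2 fold change 0.81 ± 0.26 (SE), edgeR adjusted p = 0.158, and 0.0345 without library 6).

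Among the 7 reactive effector genes, Lcn2 and Steap4 had the largest differences. Lcn2 encodes lipocalin-2, a secreted iron-siderophore carrier, and Steap4 a membrane metalloreductase. Lcn2 had 12.5, 8.56 and 5.05 CPM with DMSO and 66.4, 630 and 2.89 CPM in libraries 4, 5 and 6. Steap4 had 3.49, 2.29 and 2.16 CPM with DMSO and 23.8, 154 and 1.25 CPM with forskolin. Library 5 was far above library 4 in both genes, by a factor of 9.49 for Lcn2 and 6.47 for Steap4, while the median of that ratio over the 39 genes was 1.04. Library 6 was the lowest of the 6 libraries in both.

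The log2 fold changes on 6 libraries were 4.74 ± 1.64 (SE) for Lcn2 and 4.49 ± 1.46 (SE) for Steap4, with edgeR adjusted p-values of 0.173 and 0.159. With limma-voom on the same 6 libraries they were 2.62 and 2.72. The edgeR values rested on library 5: without it they were 2.03 and 2.28, and without library 6 they were 5.31 and 5.05, with adjusted p-values of 0.00910 and 0.00630. The authors' deposited table of forskolin-treated against control cultures lists 132 genes, where the count table has 37411 gene rows. None of the 132 has a log2 fold change under 1.501, so that lower or less raised genes could not appear in it. Of the 39 genes the authors' deposited table holds Lcn2 (log2 fold change 1.830 ± 0.352 (SE)) and Steap4 (1.852 ± 0.356 (SE)). Both values are much smaller than those of edgeR on 6 libraries, and how the authors estimated them is not stated in the sources used here. The authors' table also holds 6 further reactive genes and 2 genes of gp130 and STAT3 signalling from the lists described last. Of the other cell types it holds 6 of the 12 microglia markers and 4 of the 12 oligodendrocyte markers.

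The windows before the RefSeq starts of these 2 genes are shown because both genes put the 6 libraries in the same order. Lcn2 is chr2:32387740-32387989 on the minus strand and Steap4 is chr5:7960222-7960471 on the plus strand (GRCm38). Capitals mark a match to the STAT motif TTCNNNGAA, the form bound by STAT3.
Lcn2: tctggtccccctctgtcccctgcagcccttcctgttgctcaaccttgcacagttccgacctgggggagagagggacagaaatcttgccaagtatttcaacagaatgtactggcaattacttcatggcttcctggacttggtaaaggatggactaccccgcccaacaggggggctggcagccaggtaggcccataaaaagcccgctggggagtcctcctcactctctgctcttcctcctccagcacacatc
Steap4: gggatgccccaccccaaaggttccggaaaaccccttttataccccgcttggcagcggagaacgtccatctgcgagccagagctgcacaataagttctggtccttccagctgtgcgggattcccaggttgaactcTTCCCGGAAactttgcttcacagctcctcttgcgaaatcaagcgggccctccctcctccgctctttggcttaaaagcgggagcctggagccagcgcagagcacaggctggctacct
The match was found in the Steap4 window and not in that of Lcn2. The STAT motif occurs in 7.02% of all 32851 windows and in 5 of the 43 windows (11.6%) that belong to 34 of the 39 genes. None of the 43 windows held the full cAMP response element TGACGTCA, which occurs in 1.55% of all windows, and its short form was in 4 of them (9.30%, against 17.8%). A match describes only the letters in this window.

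Cd44, Osmr and Timp1 went the same way with smaller differences. Cd44, a gene for a hyaluronan receptor that microglia and other cells make too, had 32.1, 21.6 and 22.7 CPM with DMSO and 72.9, 86.2 and 21.1 CPM with forskolin. Osmr, which encodes the oncostatin M receptor subunit, had 33.7, 25.8 and 18.4 CPM with DMSO and 72.3, 76.4 and 20.1 CPM with forskolin. In both genes libraries 4 and 5 agreed closely, at 2.78 to 3.39 times the DMSO mean, and library 6 lay at or near the low end of the DMSO libraries. Timp1, an inhibitor of metalloproteinases, was scarce, at 1.40, 0.984 and 0.504 CPM with DMSO and 2.72, 9.60 and 0.507 CPM with forskolin. The log2 fold changes on 6 libraries were 1.24 for Cd44, 1.12 for Osmr and 2.15 for Timp1, with edgeR adjusted p-values of 0.201, 0.239 and 0.246. Timp1 rested on library 5, and was at 0.79 without it and at 1.44 with limma-voom on 6 libraries. Without library 6 all 3 were called higher, with adjusted p-values of 0.00356, 0.00649 and 0.0206.

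Serpina3n and Tnc did not share this course. Serpina3n, a secreted serine protease inhibitor gene often used to mark reactive astrocytes, had 106, 108 and 90.7 CPM with DMSO and 79.4, 139 and 101 CPM in libraries 4, 5 and 6. Library 4 was below all DMSO libraries and library 5 above them (log2 fold change 0.07 ± 0.21 (SE), edgeR adjusted p = 0.865). It belongs to a cluster of similar serpin genes, so its counts are uncertain. Tnc, the matrix glycoprotein gene tenascin C, overlapped between the groups, at 31.1 to 63.3 CPM.

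**Figure D4:**
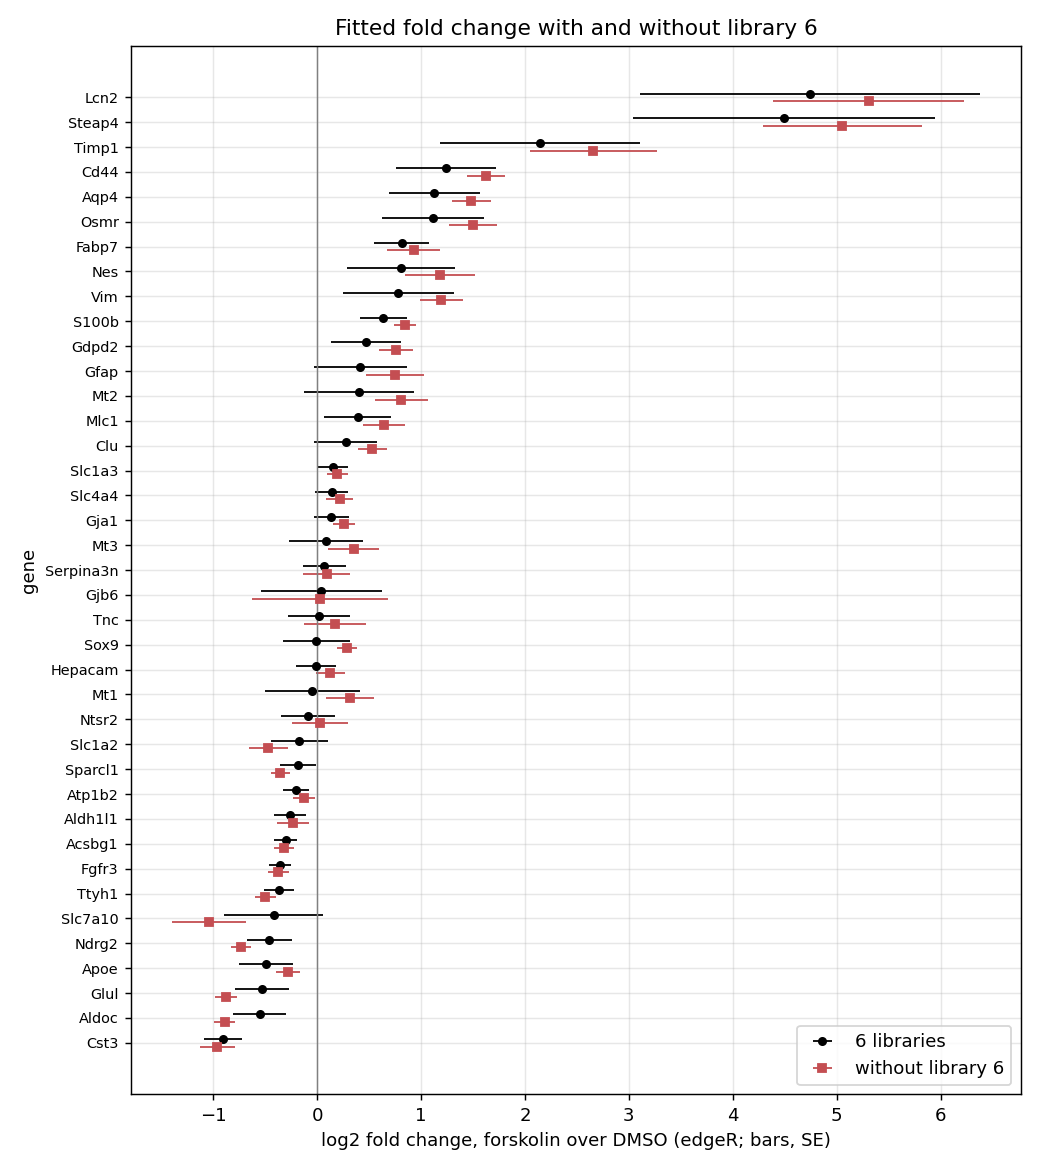
Fitted log2 fold change of forskolin over DMSO for each of the 39 genes, from edgeR on 6 libraries (black circles) and without library 6 (red squares), with bars of 1 SE. Lcn2 (4.74) and Steap4 (4.49) lie farthest to the right with wide bars, and Cst3 (-0.90) farthest to the left.

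Further genes of the same kinds are given by their counts. Their lists were set up beside the 39, also with earlier results of these data known. Of 40 other astrocyte identity genes, 0 were called higher and 1 lower on 6 libraries, against 0.172% and 1.34% of all tested genes. Their median log2 fold change was 0.12. The gene called was Btbd17, at 12.3, 13.7 and 12.1 CPM with DMSO and 5.52, 6.31 and 4.98 CPM with forskolin (log2 fold change -1.18 ± 0.17 (SE), edgeR adjusted p = 0.0371). When library 6 was left out, 12 of the 40 were called higher and 11 lower, where 16.5% of all tested genes were higher and 17.1% lower. Of 30 tested genes among 33 further reactive genes, 1 was called higher and 0 lower on 6 libraries, against 0.172% and 1.34% of all tested genes. Their median log2 fold change was 1.22. Without library 6, 23 of 31 were called higher and 1 lower, against 16.5% and 17.1% of all tested genes. The gene called on 6 libraries was Ptgs2, the inducible cyclooxygenase that neurons also express, at 3.81, 3.51 and 4.49 CPM with DMSO and 20.8, 24.1 and 12.4 CPM with forskolin (log2 fold change 2.28 ± 0.28 (SE), edgeR adjusted p = 0.0297). In contrast to the reactive effectors of the 39 genes, Ptgs2 was above the DMSO range in library 6 too.

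Of 14 tested genes of gp130 and STAT3 signalling, 0 were called higher and 1 lower on 6 libraries, against 0.172% and 1.34% of all tested genes. Their median log2 fold change was 0.17. Cntfr, which encodes the ciliary neurotrophic factor receptor subunit, was the one called, at 36.1, 43.0 and 34.98 CPM with DMSO and 20.9, 23.3 and 18.8 CPM with forskolin (log2 fold change -0.86 ± 0.14 (SE), edgeR adjusted p = 0.0427). When library 6 was left out, 6 of the 14 were called higher and 1 lower, against 16.5% and 17.1% of all tested genes. When the GC trend was removed the log2 fold changes of Btbd17, Ptgs2 and Cntfr were -0.83, 1.83 and -0.37, with edgeR adjusted p-values of 0.187, 0.114 and 0.350, in a fit that called 0 of all 16233 genes.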

How the data were processed

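RNA had been extracted with Trizol and chloroform from 3 DMSO and 3 forskolin cultures, per the labels' protocols. Counts for each gene symbol, all whole numbers, were deposited by the authors. Salmon, DESeq and GRCm38 are named in the submitters' processing notes, with no role given, and the strand setting is not given in the sources used here. A second deposited table holds the authors' log2 fold changes with their standard errors, p-values, a test statistic (a score) and a mean normalised count (a signal), per the file headers.

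Software was R 4.3.3, edgeR 4.0.16, limma 3.58.1 and DESeq2 1.42.0. The low-count filter was filterByExpr (minimum count 10, minimum total count 15), and TMM gave the scaling. The quasi-likelihood model (glmQLFit, glmQLFTest) held the group alone. Benjamini-Hochberg adjustment ran over every tested gene, with 0.05 as the threshold. The SE was taken as the size of the log2 fold change over the square root of F. Log2 ratios used a prior count of 2. The scripts were tested on simulated data with less spread between libraries than these data. That test did not show how many changes could be found here. GC content and transcript length came from GENCODE M21 (GRCm38), in which all 39 symbols were found; promoters came from RefSeq (GRCm38.p6).

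The 39 genes, their groups and all lists were chosen with earlier results of these data known. Values in every library are printed for a preset set of members and for those whose groups do not overlap or that had the most extreme fold changes; the rest are given as ranges. Alternatives were other tools, scalings and filters, GC correction, other lists, and leaving out libraries. The counts carry no molecular identifiers, and in genes with high counts the spread between libraries sets the precision. Depth was 28342764 to 47548379 counts per library.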

Additional observations from a re-analysis of the deposited data

How the results depend on the processing

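The count of called astrocyte genes (0 higher and 0 lower of 39 with edgeR on 6 libraries) stayed at 0 with limma-voom, RLE factors, library size alone, a filter at a mean CPM of 1, no filter and the GC trend removed, fits that called 0 (GC trend removed) to 326 (library size alone) of all genes tested. It was 3 higher and 2 lower with DESeq2, 13 and 9 with limma-voom and library quality weights, and 16 and 7 with the GC trend removed and library 6 left out, where 16% and 16.1% of all tested genes were called (32.1% in all). Leaving out 1 library gave 0 to 12 higher and 0 to 8 lower, with library 6 the only one whose absence gave any call; without any other single library edgeR called 0 of all genes tested. The homeostatic median log2 fold change (-0.17) moved by more than the spread between replicates to -0.27 with library size alone, -0.073 with the GC trend removed, -0.022 with that and library 6 left out, and -0.089 without the genes that microglia also make. The spread used for this was 0.048. For the reactive median (0.96) and its difference from the homeostatic median (1.13) the spread was 0.85 and 0.84, set mostly by library 6 against libraries 4 and 5, and too wide to show stability. They ranged from 0.71 to 1.44 and from 0.85 to 1.64, except with libraries 4 and 5 both left out, an alternative added after seeing the data, where they were -0.62 and -0.46.

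Of the 39 fold changes, 11 had the same sign under all 16 alternatives: Slc1a3, S100b and Fabp7 above 0, and Aldh1l1, Aldoc, Fgfr3, Atp1b2, Ndrg2, Acsbg1, Cst3 and Ttyh1 below it. This count took no account of the standard error, so values close to 0 could decide it. Aldoc and Ndrg2 were at -0.032 and -0.019 without libraries 4 and 5, and Slc1a3 at 0.028 with the GC trend removed. All alternatives also draw on the same libraries, so a shared sign does not show that it would repeat. A reversal was counted where the fold change exceeded its standard error in either fit. With libraries 4 and 5 left out the reversed log2 fold changes were Aqp4 -0.12, Slc1a2 0.31, Gja1 -0.16, Glul 0.0097, Mlc1 -0.33, Clu -0.47, Sparcl1 0.12, Gdpd2 -0.42, Gfap -0.68, Vim -0.90, Nes -0.57, Lcn2 -1.55, Steap4 -1.04, Cd44 -0.23, Osmr -0.33, Timp1 -0.88, Tnc -0.35, Mt2 -1.21, Mt3 -0.71. With library quality weights those of Sox9 and Mt1 were 0.26 and 0.31, and with the GC trend removed and library 6 left out those of Sox9, Hepacam, Apoe and Mt1 were 0.30, 0.25, 0.091 and 0.44. Leaving out 1 library gave -0.22 to 0.29 for Sox9, -0.37 to 0.32 for Mt1 and -0.41 to 0.23 for Tnc. The cause of these shifts was not tested. No paired analysis was possible because the libraries are numbered 1 to 6 across both groups and share no number.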
